A study of Mus musculus with 2 samples.

Results

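Prostaglandins and leukotrienes are lipid signals made from arachidonic acid, and 10 genes of their synthesis and sensing, of 32285 genes counted, were followed by symbol through the immune cells of mouse melanomas. The members are the cyclooxygenases Ptgs1 and Ptgs2, the prostaglandin E synthases Ptges and Ptges3, the prostaglandin E2 receptors Ptger2 and Ptger4, the breakdown enzyme Hpgd, and Alox5, Alox5ap and Ltc4s of the leukotriene route. All 10 were found, with 168994 unique molecular identifiers (UMIs, each a counted RNA molecule) in the cells kept. Cells came from tumours grown under the skin from B16-F10, a melanoma line, that were DGAT1-knockout (KO) or WT. DGAT1 makes triglyceride, and the genotype is that of the implanted tumour cells, so the immune cells described here come from the host.

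Each group was 1 droplet single-cell library of living CD45+ cells, sorted 14 days after injection, and 3 tumours stand behind each group with nothing that maps a cell to its tumour. There is therefore no replicate check on any difference below, no test was possible, and the intervals, at 95%, cover counting error only. After filtering, 10912 cells were kept in the DGAT1-knockout library and 9042 in the WT library, with medians of 10776 and 14185 UMIs per cell. The libraries shared 24 cell barcodes. Dgat1 itself was at 18.9 CPM (counts scaled to 1000000 UMIs) in the 201 melanoma-like cells of the knockout library, against 29.0 CPM in 756 such cells of the WT library; no source used here says whether the counted RNA ends lie in the deleted stretch, and the labels are not checked by it. Although CD45+ cells had been sorted, these melanoma-like cells were present, and transcripts of melanoma genes were also counted in the 15 immune classes, where they put free RNA at an estimated 3.48% (CD8 T-like) to 18.0% (neutrophil-like) of a class's UMIs.

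In tissue, cyclooxygenases turn arachidonic acid into prostaglandin H2, which terminal synthases such as Ptges make into prostaglandin E2. That lipid acts through the receptors EP2 and EP4 on lymphocytes and myeloid cells, and Hpgd inactivates it. In the other route, 5-lipoxygenase (Alox5) works with its helper protein (Alox5ap) to make leukotriene A4, from which Ltc4s makes leukotriene C4. Tumour prostaglandin E2 is known for restraining dendritic cells, NK cells and T cells.

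Cells were placed in classes by marker genes, none of them a member, and the 10 classes that reached 100 cells on both sides were compared. Fixed markers gave CD8 T-like, NK-like, macrophage-like, monocyte-like, non-classical monocyte-like, neutrophil-like, cDC1-like, cDC2-like and mature dendritic-like cells. The compared phagocytes led by Inhba and Slc7a2, and the Lyve1-Cbr2 macrophages that were described without comparison, were gated from genes chosen after the clusters had been seen. Of 100 pairs of a member and a compared class, 62 held at least 50 UMIs over both libraries and count as measured. Among these, 11 were at least 1.5-fold higher in knockout cells and 4 at least 1.5-fold lower. Over all genes, 6.16% of 98885 such pairs were that much higher and 5.4% that much lower. The other 38 pairs held too few UMIs and were left uncompared, although each of the 10 members was measured in at least 1 class.

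**Figure D1:**
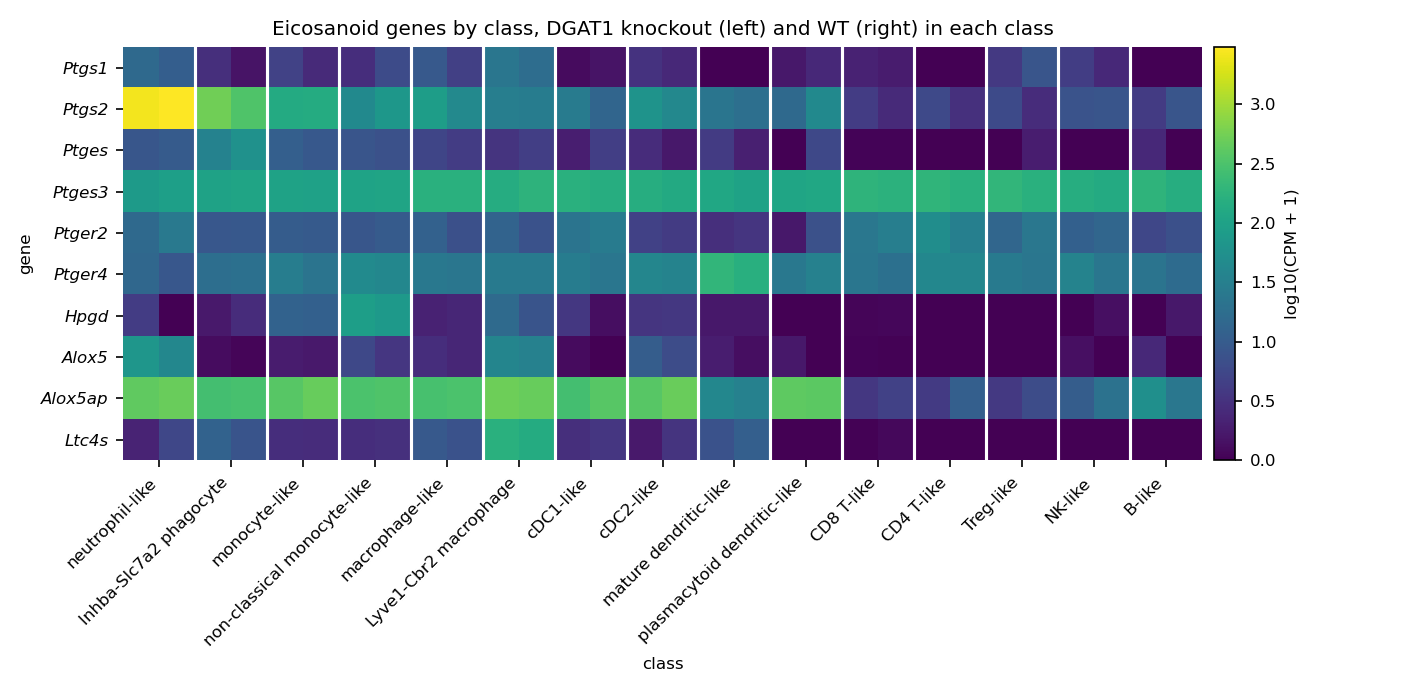
Level of each gene (rows) in 15 immune classes (columns), as log10(CPM + 1), with the DGAT1-knockout library left of the WT library in each class. Ptgs2 is brightest in neutrophil-like cells, Ltc4s in Lyve1-Cbr2 macrophages, Hpgd in non-classical monocyte-like cells, and Ptges3 is found in every class.

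Ptgs2, the inducible cyclooxygenase, was concentrated in neutrophils and in the Inhba-Slc7a2 phagocytes. In neutrophil-like cells Ptgs2 stood at 2670.3 CPM (2591 to 2751) in knockout cells and 3029 CPM (2915 to 3145) in WT cells, a ratio of 0.88. The Inhba-Slc7a2 phagocytes came next, with 531 CPM (519 to 544) in knockout cells and 333 CPM (321 to 345) in WT cells. This second place held in both libraries, and the intervals of the leading 2 classes did not overlap each other or those of the monocyte-like cells below them. Neutrophil-like cells were 2.88% of kept knockout cells and 1.64% of kept WT cells, yet held 22.8% and 23.5% of all Ptgs2 UMIs. The Inhba-Slc7a2 phagocytes held 39.0% of them in the knockout and 27.6% in the WT library. Over all kept cells Ptgs2 was at 113 CPM in knockout cells and 59.8 CPM in WT cells, a ratio of 1.88 (1.84 to 1.93) that joins the level per class with how many cells of each class were sampled.

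Ptgs2 (ENSMUSG00000032487) is a protein-coding gene on the plus strand (chromosome 1, 150100031 to 150108227 in mm10). Its upstream sequence is shown because, among pairs past 1.5-fold, those with the most UMIs were of Ptgs2. That of Ptges, its partner enzyme, is shown because Ptges was highest in the Inhba-Slc7a2 phagocytes and went the other way there. The sequences are the 250 bases before the start that RefSeq gives (build GRCm38.p6), 5′ to 3′ on the gene's strand, and capitals mark matches to TTGCNNAA (the C/EBP motif) and to GGG and CC with any 5 bases between (the NF-kB motif) on either strand. The Ptgs2 window is chr1:150099781-150100030 on the plus strand and that of Ptges is chr2:30903298-30903547 on the minus strand.
Ptgs2: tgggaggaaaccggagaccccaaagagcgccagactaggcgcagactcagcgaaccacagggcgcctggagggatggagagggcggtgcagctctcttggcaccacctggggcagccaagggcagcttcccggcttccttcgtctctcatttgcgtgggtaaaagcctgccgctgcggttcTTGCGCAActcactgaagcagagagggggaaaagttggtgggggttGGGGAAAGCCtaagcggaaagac
Ptges: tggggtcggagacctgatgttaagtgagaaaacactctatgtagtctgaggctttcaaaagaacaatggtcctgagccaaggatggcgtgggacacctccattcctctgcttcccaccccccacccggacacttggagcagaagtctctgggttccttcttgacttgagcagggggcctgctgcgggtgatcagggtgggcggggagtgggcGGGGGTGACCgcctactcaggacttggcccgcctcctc
The Ptgs2 window has the C/EBP motif with its first base 69 bases before the start, and the NF-kB motif at 23 bases before it. The 50 bases after the start, not printed, hold the E-box CACGTG, its first base at position 17, and the reverse complement of TGACGT (the cyclic-AMP response motif) at position 13, the 2 sharing letters. Ptges has only the NF-kB motif of those searched, at 38 bases before the start. Over 32851 RefSeq windows of 300 bases, 10.8% hold the C/EBP motif, 50.8% the NF-kB motif, 7.15% the E-box and 7.51% the cyclic-AMP motif. A match describes letters only, and TATAAA, the fifth motif searched, is in neither window.

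The Ptgs2 difference with the most UMIs behind it lay in the Inhba-Slc7a2 phagocytes, where the ratio of knockout to WT was 1.60 (1.53 to 1.66). Among 7 members measured there, 2 were at least 1.5-fold higher, against 5.59% of all genes. A Ptgs2 UMI was found in 61.2% (58.2% to 64.1%) of 1075 knockout cells and 58.5% (54.5% to 62.3%) of 633 WT cells. Once each cell was thinned to 3000 UMIs, the shares were 47.0% (43.9% to 50.1%) of 1021 knockout cells and 38.4% (34.5% to 42.4%) of 607 WT cells. In CD8 T-like cells, where the Ptgs2 level was low, the thinned shares were 0.962% and 0.866%. Median depths before thinning were 10793 and 12329 UMIs in the phagocytes, knockout and WT, and 18626 and 22273 UMIs in the CD8 T-like cells. The 3 clusters that hold this class each had more Ptgs2 in the knockout library, with log2 ratios from 0.33 to 1.01. Neutrophil markers, 7 genes with none at 0, summed to 104 CPM in knockout cells and 95.1 CPM in WT cells in these phagocytes. A list of 13 dissociation-stress genes, chosen after the data were seen, summed to 4317 CPM in knockout cells and 3727 CPM in WT cells, and 4 of the 13 were at least 1.5-fold higher. The part of either in the Ptgs2 difference was not tested.

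Macrophage-like cells, 927 in the knockout and 2137 in the WT library, held Ptgs2 at 85.2 CPM (81.0 to 89.6) in knockout cells and 42.1 CPM (40.3 to 43.9) in WT cells, a ratio of 2.03 (1.90 to 2.16). Among 10 members measured in them, 3 were at least 1.5-fold higher (Ptgs1, Ptgs2 and Ptger2) and none was as much lower, against 6.06% and 4.43% of all genes. Different clusters held the largest share of these cells, one led by Pf4, Ppbp and Arg1 in the knockout library (28.9%) and one led by Negr1 and Psd3 in the WT library (29.8%). Within clusters, Ptgs2 was higher in knockout cells in 7 of 7, of which 1 rests on 2 UMIs in knockout cells and 1 UMI in WT cells. The smallest difference was in the Pf4, Ppbp and Arg1 cluster, at 99.6 CPM in knockout cells and 86.9 CPM in WT cells. In the cluster led by Gdf15 and Ifnb1 it was 179 CPM in the knockout library, against 68.6 CPM in WT cells. With every cluster weighted alike in both libraries the log2 ratio of the class was 0.89, where the pooled value was 1.02. Summed neutrophil markers were at 86.5 CPM in knockout and 73.2 CPM in WT macrophage-like cells, and stress genes at 2000.2 CPM and 1898 CPM; their part was not tested.

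**Figure D2:**
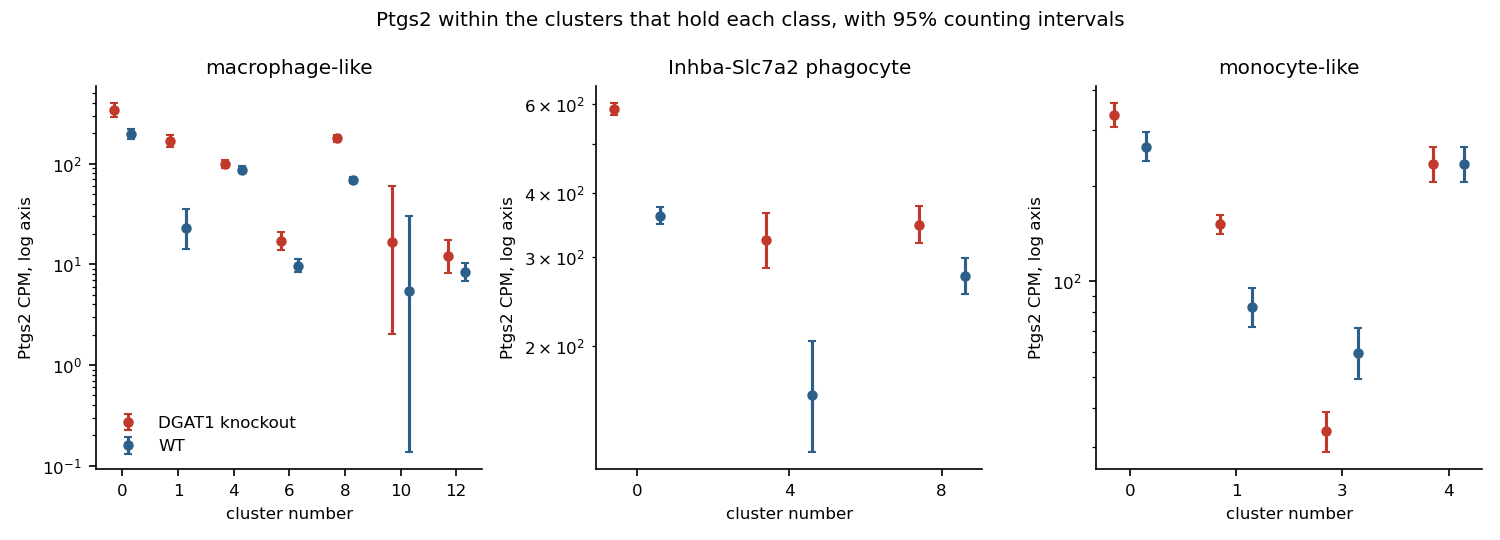
Ptgs2 level (CPM, log axis) in each cluster that holds macrophage-like cells, Inhba-Slc7a2 phagocytes and monocyte-like cells, with the DGAT1-knockout library left of the WT library and bars giving 95% counting intervals. Knockout points lie above WT points in all 7 macrophage-like and all 3 phagocyte clusters, but below in cluster 3 of the monocyte-like cells.

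In monocyte-like cells as a class, Ptgs2 lay within 1.5-fold. It was at 132 CPM (126 to 138) in knockout cells and 140 CPM (131 to 149) in WT cells, a ratio of 0.95 (0.88 to 1.02). The direction depended on the processing: the log2 ratio of -0.08 kept its sign in 7 of 13 alternatives, with 0.68 when clusters replaced gates, past 1.5-fold higher, and -0.54 under stricter gates. Ptgs2 was higher in knockout cells in 3 of their 4 clusters and lower in 1, with log2 ratios from -0.82 to 0.87. In the cluster led by Spon1 and Ly6i it was at 151 CPM in knockout and 82.9 CPM in WT cells, while in the cluster led by Adgre4 and Hp it was at 33.7 CPM in knockout and 59.6 CPM in WT cells. Non-classical monocyte-like cells had 44.0 CPM in knockout cells and 68.9 CPM in WT cells, a ratio of 0.64 (0.50 to 0.82). Of 5 members measured there 1 was at least 1.5-fold lower and 0 higher, against 5.46% and 7.28% of all genes. In these cells 10 cells held 64.3% of the knockout UMIs and 76.5% of the WT UMIs, and without the 10 leading cells of each library the log2 ratio was -0.09 in place of -0.65. The stress genes also stood lower in them, at 1896 CPM in knockout cells and 2696 CPM in WT cells, and their part was not tested.

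In the cDC1-like and CD8 T-like classes the Ptgs2 values rest on little RNA. In cDC1-like cells Ptgs2 was at 27.4 CPM in knockout cells and 12.6 CPM in WT cells. This was 1 of 5 members at least 1.5-fold higher, with 0 lower, against 5.88% and 5.98% of genes. Of the UMIs 10 cells held 93.8% and 85.1%, and without them the log2 ratio was -0.15 in place of 1.13. Ptgs2 in CD8 T-like cells was at 3.18 CPM in knockout cells and 1.61 CPM in WT cells. It was 1 of 6 members that much higher, with 0 lower, against 3.33% and 6.93% of genes. The UMIs expected from free RNA, estimated from melanoma genes, came to 113% and 109% of those counted, in knockout and WT cells. That estimate put free RNA at 3.49% of CD8 T-like UMIs in knockout and 3.48% in WT cells. An estimate from the macrophage genes C1qa, C1qb and C1qc was lower, at 1.76% and 1.77%. The part of free RNA in these CD8 T-like levels was not tested. In cDC2-like cells Ptgs2 was at 61.3 CPM in knockout cells and 41.1 CPM in WT cells, a ratio of 1.49 (1.29 to 1.72), just under the 1.5-fold line. Of 13 alternatives 7 stayed within 1.5-fold, and the log2 ratio of 0.58 became 0.02 under stricter gates and 2.20 without the 10 leading cells of each library. The stress genes summed to 2242 CPM in knockout and 1762 CPM in WT cDC2-like cells, with 3 of the 13 at least 1.5-fold higher and 0 lower, and their part was not tested.

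**Figure D3:**
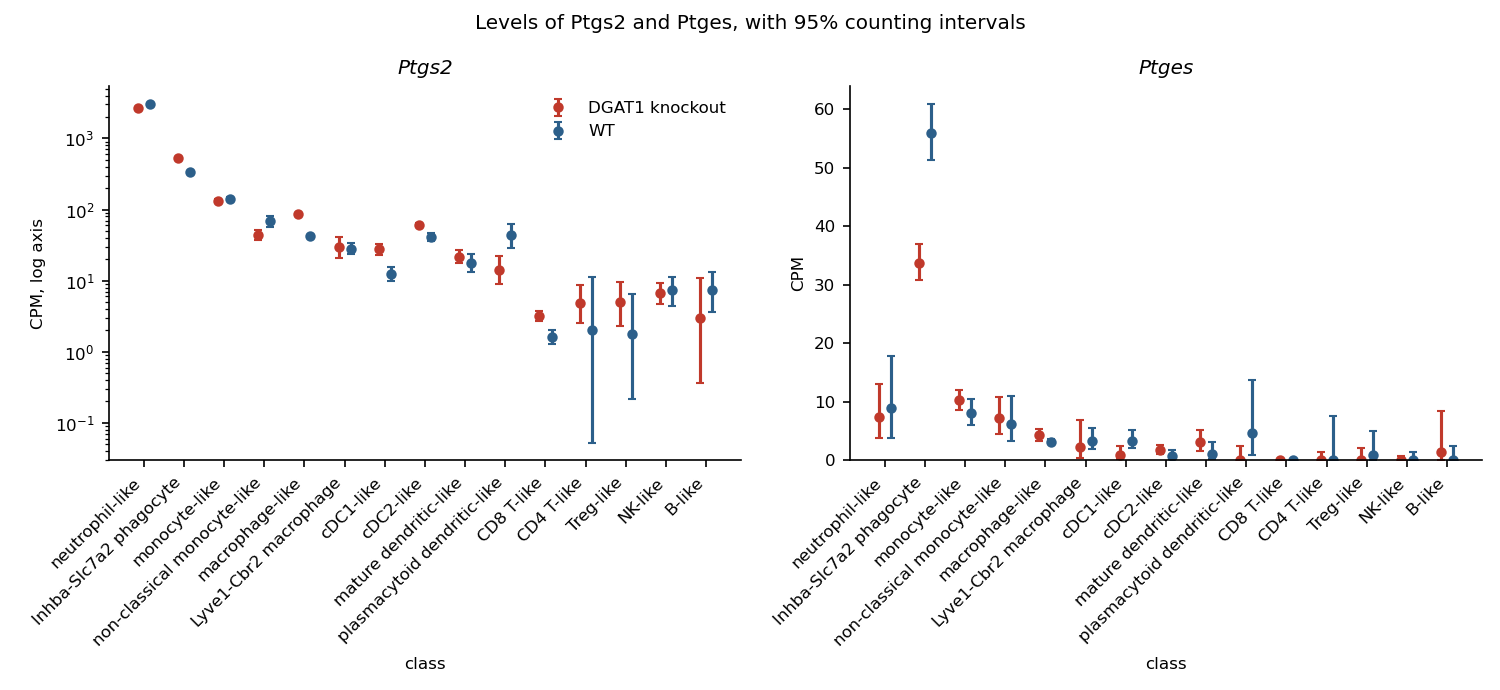
Levels of Ptgs2 (CPM, log axis) and Ptges (CPM, linear axis) in 15 classes, with the DGAT1-knockout library left of the WT library and 95% counting intervals. Neutrophil-like cells lead for Ptgs2, Inhba-Slc7a2 phagocytes lead for Ptges, and in those phagocytes the knockout point is above WT for Ptgs2 and below it for Ptges.

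Ptges, the inducible membrane synthase that makes prostaglandin E2 from the cyclooxygenase product, went the opposite way in the same phagocytes. Inhba-Slc7a2 phagocytes had 33.8 CPM (30.8 to 37.0) in knockout cells and 55.9 CPM (51.3 to 60.9) in WT cells, a ratio of 0.60 (0.53 to 0.69), where 4.77% of genes were at least 1.5-fold lower. This class held 53.2% of all Ptges UMIs in the knockout and 56.0% in the WT library. After thinning, 6.46% of knockout cells and 9.23% of WT cells had a Ptges UMI. The size of the difference depended on few cells. One WT cell held 97 UMIs and the fullest knockout cell 39, and without the 10 leading cells of each library the log2 ratio was -0.29 in place of -0.73. With clusters in place of gates it was -0.34. All 3 clusters of the class were lower in the knockout library. Ptges was about as frequent in phagocytes with Ptgs2 as in those without: among phagocytes with a Ptgs2 UMI, 16.9% of knockout and 22.2% of WT cells also had Ptges, and among those without, 15.1% of knockout and 22.1% of WT cells did. Phagocytes with a Ptgs2 UMI had median depths of 12050 UMIs in knockout and 14000 in WT cells. Those without had 9161 and 10790, and the part of depth was not tested. In monocyte-like cells Ptges was at 10.2 CPM in knockout cells and 8.09 CPM in WT cells, and in macrophage-like cells at 4.30 CPM in knockout cells and 3.21 CPM in WT cells, both within 1.5-fold. The monocyte-like log2 ratio of 0.34 became 0.59 with clusters in place of gates and 0.84 without the 10 leading cells of each library. Ptges (ENSMUSG00000050737) lies on the minus strand (chromosome 2, 30889471 to 30929863). The Ptges window printed above precedes the RefSeq start, but it lies inside this span, which is from GENCODE, and not before it.

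Ptges3, which encodes the HSP90 co-chaperone p23 besides its prostaglandin E synthase name, was broad and steady. Its level ran from 78.8 to 192 CPM over 15 classes in knockout cells and from 92.3 to 176 CPM in WT cells. In all 10 compared classes it stayed within 1.5-fold, with log2 ratios from -0.23 to 0.20.

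Ptgs1, the cyclooxygenase generally taken as constitutive, was low and highest in Lyve1-Cbr2 macrophages, at 22.0 CPM (14.6 to 31.8) in 74 knockout cells and 16.7 CPM (13.2 to 21.02) in 165 WT cells. Neutrophil-like cells followed at 14.3 CPM in knockout cells and 10.1 CPM in WT cells, with intervals that overlapped those of the Lyve1-Cbr2 macrophages. In macrophage-like cells Ptgs1 was at 8.43 CPM (7.14 to 9.89) in knockout cells and 3.59 CPM (3.09 to 4.14) in WT cells, a ratio of 2.35 (1.88 to 2.93). The platelet markers, 8 genes of a cell type rich in Ptgs1, summed to 25.9 CPM in knockout and 13.1 CPM in WT macrophage-like cells, with Gp9, Gp1bb and Gp5 at 0 in the knockout library; their part in the difference was not tested. In monocyte-like cells the values were 3.82 CPM from 54 UMIs in knockout cells and 1.59 CPM from 11 UMIs in WT cells, a ratio of 2.40 (1.24 to 5.10). It was 1 of 8 members at least 1.5-fold higher there, with 0 lower, against 7.03% and 3.89% of genes. With clusters in place of gates that log2 ratio was 0.47 in place of 1.26, and without the 10 leading cells of each library 2.44. Ptgs1 (ENSMUSG00000047250) lies on the plus strand (chromosome 2, 36230426 to 36252272).

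**Figure D4:**
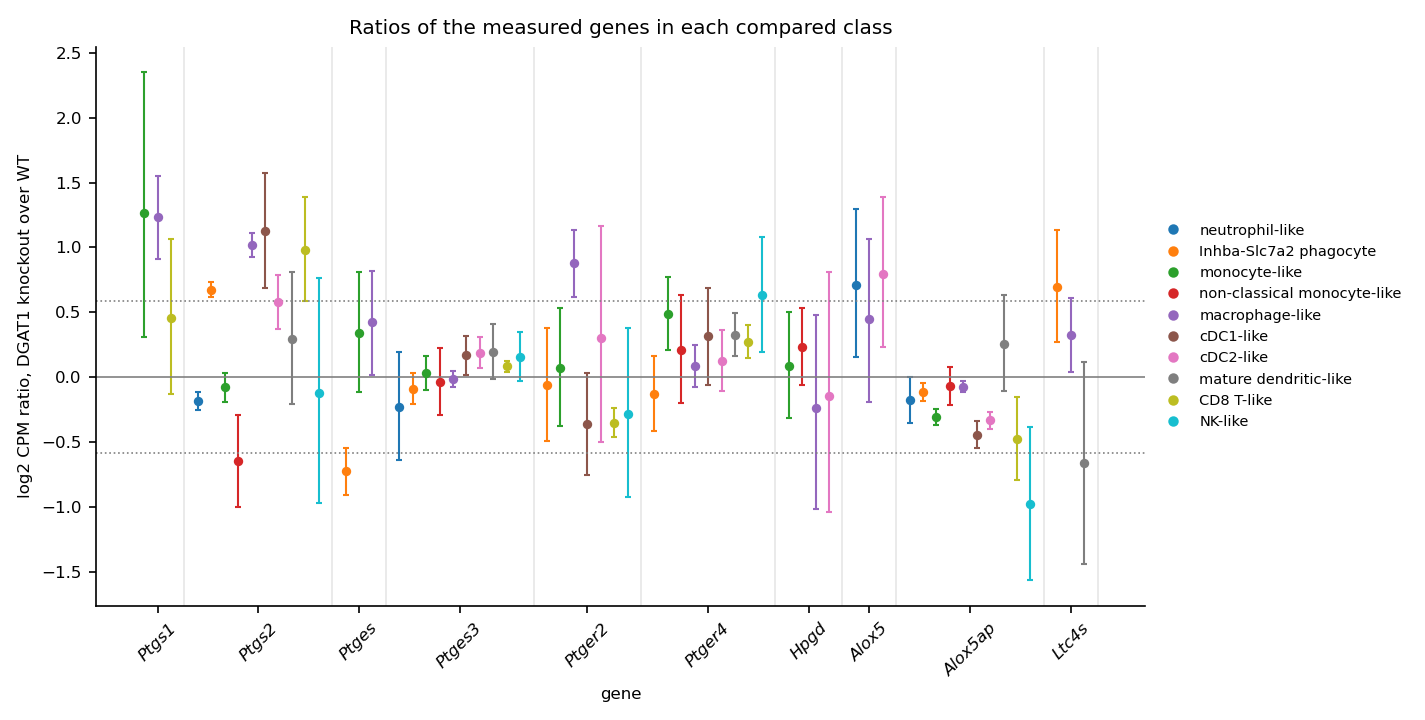
Log2 ratio of CPM, DGAT1 knockout over WT, for the 62 measured pairs of a gene and a compared class, grouped by gene and coloured by class, with 95% counting intervals and dotted lines at 1.5-fold. Ptgs2 spans from -0.65 to 1.13 across classes, while Ptges3 stays between -0.23 and 0.20.

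The receptors stood highest in other classes than Ptgs2 and Ptges did. Ptger2, which encodes EP2, stood highest in CD4 T-like, CD8 T-like and cDC1-like cells, followed by neutrophil-like cells at 14.3 CPM in knockout cells and 24.8 CPM in WT cells, whose intervals overlapped those of the cDC1-like cells. CD8 T-like cells held 52.8% of its UMIs in the knockout and 58.6% in the WT library. Their level was 23.0 CPM (21.8 to 24.3) in knockout cells and 29.4 CPM (27.9 to 30.9) in WT cells, a ratio of 0.78 (0.73 to 0.85) that is within 1.5-fold. The direction was the same in 6 of 6 CD8 T-like clusters, with log2 ratios from -1.61 to -0.21. The stress genes were also lower in these cells, at 824 CPM in knockout cells and 1297 CPM in WT cells, and their part was not tested. In cDC1-like cells Ptger2 was at 21.1 CPM in knockout cells and 27.0 CPM in WT cells, a ratio of 0.78 (0.59 to 1.02). CD4 T-like cells, too few to compare, stood at 50.2 CPM (41.8 to 60.0) in 171 knockout cells and 30.5 CPM (17.1 to 50.3) in 48 WT cells. Macrophage-like cells went the other way, with 11.2 CPM in knockout cells and 6.07 CPM in WT cells, a ratio of 1.84 (1.53 to 2.20). With clusters weighted alike that log2 ratio was 0.51 in place of 0.88, under the 1.5-fold line.

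Ptger4, which encodes EP4, stood highest in mature dendritic-like cells, at 196 CPM (183 to 209) in knockout cells and 156 CPM (142 to 171) in WT cells. Their intervals did not overlap those of any other class in the same library. The next class, non-classical monocyte-like cells, was at 45.9 CPM in knockout cells and 39.7 CPM in WT cells. A Ptger4 UMI was present in 44.3% (38.6% to 50.2%) of thinned knockout and 40.1% (32.9% to 47.6%) of thinned WT mature dendritic-like cells. In NK-like cells Ptger4 was at 34.6 CPM (29.7 to 40.02) in knockout cells and 22.3 CPM (17.0 to 28.9) in WT cells, a ratio of 1.55 (1.15 to 2.12), where 6.11% of genes were at least 1.5-fold higher. Across alternatives of processing that log2 ratio ran from 0.22 to 0.84, and 9 of 13 kept it past 1.5-fold. The stress genes summed to 735 CPM in knockout and 1242 CPM in WT NK-like cells, with 8 of the 13 at least 1.5-fold lower, and their part in the NK-like differences was not tested. Ptger4 in CD8 T-like cells was at 22.0 CPM in knockout cells and 18.2 CPM in WT cells. Ptger4 (ENSMUSG00000039942) lies on the minus strand (chromosome 15, 5206661 to 5244187), and Ptger2 (ENSMUSG00000037759) on the plus strand (chromosome 14, 44988195 to 45003820).

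Hpgd, the dehydrogenase that begins the breakdown of prostaglandin E2, marked non-classical monocyte-like cells. They held it at 88.4 CPM (78.3 to 99.3) in knockout cells and 75.1 CPM (63.4 to 88.4) in WT cells, a ratio of 1.18 (0.96 to 1.45). No other immune class exceeded 14.9 CPM in the knockout library or 10.8 CPM in WT cells. The RNA was uneven among cells: 20.9% of knockout and 20.5% of WT cells had a UMI, and 10 cells held 45.2% and 61.8% of the total. In the 4 classes where Hpgd was measured it was within 1.5-fold, but each passed that line under some alternative. Without the 10 leading cells of each library the log2 ratio was 0.71 in non-classical monocyte-like cells (0.23 with them) and -1.21 in macrophage-like cells (-0.24 with them). With only barcodes above the UMI threshold it was 2.26 in monocyte-like cells, in place of 0.09, and -0.97 in cDC2-like cells, in place of -0.14, where thinned cells gave 1.04. The class thus paired the highest Hpgd with the Ptgs2 values of 44.0 CPM in knockout and 68.9 CPM in WT cells given above. Hpgd (ENSMUSG00000031613) lies on the plus strand (chromosome 8, 56294585 to 56321043).

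The leukotriene genes separated into a broad helper and narrow enzymes. Alox5ap, which presents arachidonic acid to 5-lipoxygenase, was found throughout the myeloid classes and in plasmacytoid dendritic-like cells. Its levels ran up to 508 CPM in knockout Lyve1-Cbr2 macrophages and 488 CPM in WT neutrophil-like cells. They were far lower in mature dendritic-like cells, at 39.6 CPM in knockout and 33.2 CPM in WT cells. B-like cells stood at 52.8 CPM in knockout and 23.4 CPM in WT cells. Among the 10 compared classes, 9 had lower values in the knockout library, all but the mature dendritic-like cells, and 1 of them passed 1.5-fold. The CD8 T-like value rests on 2.69 CPM in knockout and 3.74 CPM in WT cells, the lowest levels of the 15 classes. The part of free RNA in it was not tested. The sign turned under 1 alternative each in CD8 T-like cells (0.07 with doublets kept) and in macrophage-like cells (0.01 when cells over 5% mitochondrial UMIs were left out). In monocyte-like cells the levels were 376 CPM in knockout cells and 465 CPM in WT cells, a ratio of 0.81 (0.77 to 0.84). In cDC1-like cells they were 273 CPM in knockout cells and 371 CPM in WT cells, a ratio of 0.74 (0.68 to 0.79). The pair past 1.5-fold was in NK-like cells, at 9.80 CPM in knockout cells and 19.3 CPM in WT cells, where 3.15% of genes were as much lower, and there the UMIs expected from free RNA came to 107% of those counted in knockout cells and 90.05% in WT cells. The pair stayed at least 1.5-fold lower in 13 of 13 alternatives. With free RNA subtracted no knockout UMIs were left, so a floor of 3 counts stood in for them. The log2 ratio of -1.78 there, in place of -0.98, depends on that floor and says nothing about the difference.

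Alox5, the 5-lipoxygenase itself, reached the UMI minimum in 3 compared classes. Neutrophil-like cells had 66.4 CPM (54.4 to 80.2) in knockout cells and 40.5 CPM (28.4 to 56.1) in WT cells, a ratio of 1.64 (1.11 to 2.46), where 8.34% of genes were higher and 16.6% lower by 1.5-fold or more. The intervals of the levels overlapped, and the WT value rests on 36 UMIs. With doublets kept the log2 ratio was 0.35 in place of 0.71, and without the 10 leading cells of each library it was 1.36. Lyve1-Cbr2 macrophages came second, at 36.9 CPM (27.1 to 49.1) in knockout cells and 32.4 CPM (27.3 to 38.1) in WT cells, and in WT cells their interval overlapped that of the neutrophil-like cells. In cDC2-like cells Alox5 was at 9.55 CPM in knockout cells and 5.51 CPM in WT cells, a ratio of 1.73 (1.18 to 2.62). It was 1 of 7 members that much higher, with 0 lower, against 6.43% and 3.35% of genes. There 10 cells held 65.7% of the knockout UMIs and 90.9% of the WT UMIs. The level was highest in a small cluster led by Retnla and Ifitm1, at 22.1 CPM in knockout and 17.1 CPM in WT cDC2-like cells. In the largest cluster, led by Cd209a and Ifitm1, it was 8.02 CPM in knockout and 2.55 CPM in WT cells. Of the 3 clusters of this class, 2 were higher in knockout cells and 1 was lower, with log2 ratios from -0.27 to 1.65. Under stricter gates the log2 ratio of the class was 0.48 in place of 0.79, and without the 10 leading cells of each library it was 2.66. An Alox5 UMI was found in 36 knockout and 13 WT cells, so leaving out 10 removes most of the WT ones.

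Ltc4s, which makes leukotriene C4, was concentrated in one class. Lyve1-Cbr2 macrophages had 160 CPM (139 to 184) in knockout cells and 138 CPM (127 to 149) in WT cells. The next class reached 11.3 CPM in knockout cells and 10.5 CPM in WT cells, far outside those intervals. These macrophages were 0.678% of kept knockout cells and 1.82% of kept WT cells, and they held 32.2% and 50.2% of all Ltc4s UMIs. Over all kept cells Ltc4s was at 3.79 CPM in knockout cells and 6.34 CPM in WT cells, a ratio of 0.60 (0.54 to 0.66), and this again joins levels with the numbers of cells sampled. The enzymes of the route met in the same cells: of Lyve1-Cbr2 macrophages with an Alox5 UMI, 80.0% of 20 knockout and 83.6% of 61 WT cells also had Ltc4s, against 38.9% and 39.4% of the others. Cells with an Alox5 UMI were also deeper, with medians of 21090 UMIs in the knockout and 33850 in the WT library, against 11550 and 17210 in the others, and the part of depth was not tested.

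Ltc4s in other classes was scarce. Inhba-Slc7a2 phagocytes had 11.3 CPM in knockout cells and 6.96 CPM in WT cells, a ratio of 1.62 (1.21 to 2.19), and 10 cells held 67.3% of the knockout and 60.6% of the WT UMIs. Under stricter gates that log2 ratio was 0.29 in place of 0.69, and with thinned cells 1.47. Within that class Ltc4s was highest in the cluster led by Pf4, Ppbp and Arg1, at 75.2 CPM in knockout and 34.5 CPM in WT cells. It was higher in knockout cells in 2 of the 3 clusters and lower in the one led by Gdf15 and Ifnb1, at 6.23 CPM in knockout and 8.36 CPM in WT cells. Mature dendritic-like cells had 6.61 CPM in knockout cells and 10.5 CPM in WT cells from 30 UMIs each, a ratio of 0.63 (0.37 to 1.08) whose interval includes equality. It was 1 of 5 members at least 1.5-fold lower, with 0 higher, against 4.52% and 7.97% of genes. Ltc4s (ENSMUSG00000020377) lies on the minus strand (chromosome 11, 50236461 to 50238616), Alox5 (ENSMUSG00000025701) on the minus strand (chromosome 6, 116410077 to 116461178), and Alox5ap (ENSMUSG00000060063) on the plus strand (chromosome 5, 149264767 to 149288153).

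**Figure D5:**
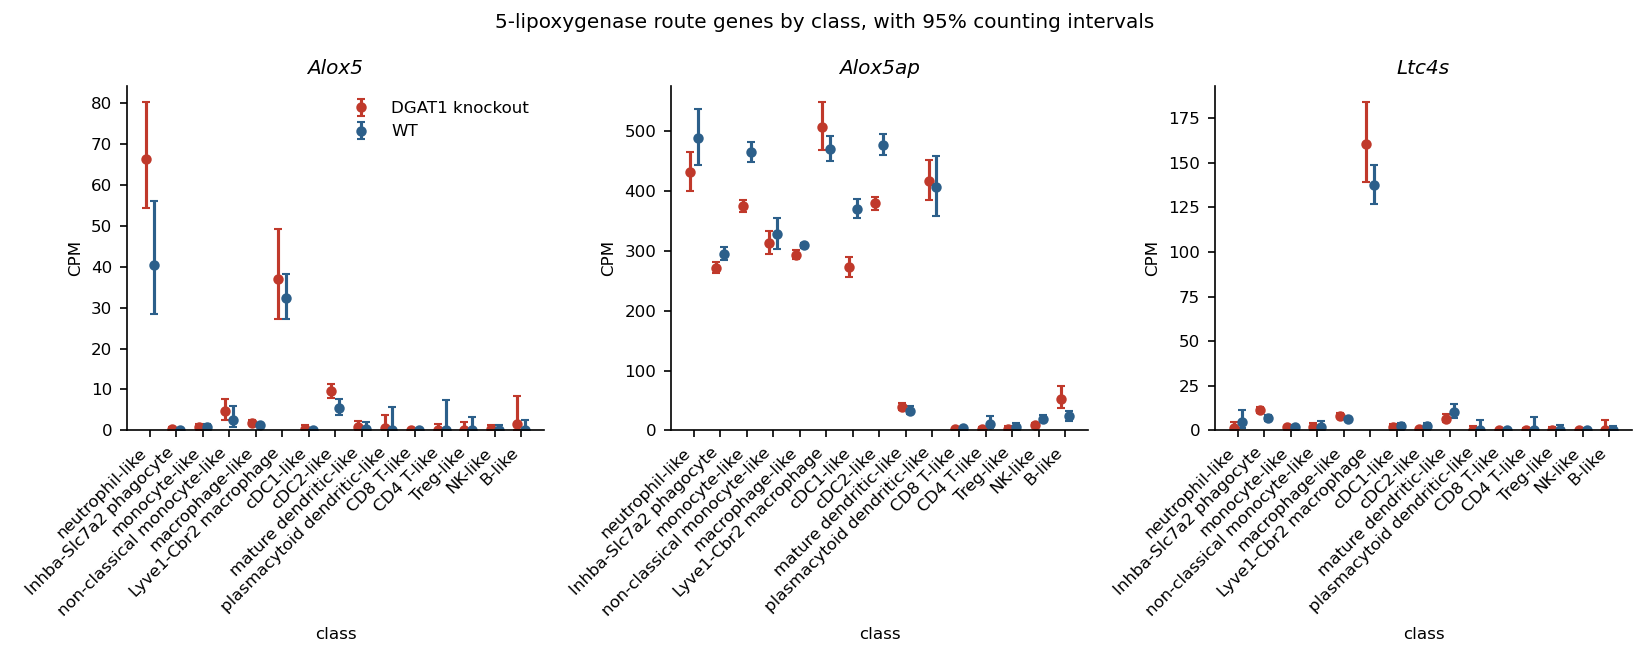
Levels (CPM) of Alox5, Alox5ap and Ltc4s in 15 classes, with the DGAT1-knockout library left of the WT library and 95% counting intervals. Alox5ap is found across the myeloid classes, with far less in mature dendritic-like cells. Alox5 is found in neutrophil-like cells and Lyve1-Cbr2 macrophages, and Ltc4s in Lyve1-Cbr2 macrophages at 160 CPM in knockout cells and 138 CPM in WT cells.

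The genes whose levels followed each member most closely were sought over 30 levels, 15 classes in each of the 2 libraries, which share their cells and depth. Ptgs2 ran with Ier3 (Pearson r = 0.97), an immediate-early gene, with Ptgs2os2 (r = 0.97), a long non-coding RNA on the minus strand (chromosome 1, 150159043 to 150164948) that does not overlap it, and with Il1rn (r = 0.95), the interleukin-1 receptor antagonist. Alox5ap ran with Ifi207 and Mpeg1 (both r = 0.97), Hpgd with Adgrl3 (r = 0.89) and Ptger4 with Mtf1 (r = 0.91). Ltc4s ran with Ednrb (r = 0.88), which is one of the genes used to gate the Lyve1-Cbr2 macrophages. Alox5 ran with Hnmt (r = 0.85), which inactivates histamine.

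Other genes of the pathway, 48 listed with earlier results known, gave 205 measured pairs in the same classes, of which 17 were at least 1.5-fold higher in knockout cells and 30 lower, where over all genes 6.16% of pairs were higher and 5.4% lower. Ptgds, a prostaglandin D synthase that melanoma-like cells held at 1904 CPM in knockout cells and 1870.3 CPM in WT cells, was lower in 10 of 10 classes, for example 1.84 CPM in knockout and 9.59 CPM in WT CD8 T-like cells. The UMIs expected from free RNA came to 138% and 108% of those counted there. Without Ptgds, 17 of 195 pairs were higher and 20 lower. Hpgds, the other prostaglandin D synthase, was lower in 6 of 8 classes measured. Among them were neutrophil-like cells with 23.6 CPM in knockout cells and 52.9 CPM in WT cells, where 16.6% of genes were at least 1.5-fold lower. Free RNA was estimated at 14.9% of UMIs in knockout and 18.0% in WT neutrophil-like cells, and its part was not tested. In macrophage-like cells, 6 of 28 pathway genes were higher and 2 lower, against 6.06% and 4.43% of all genes. Higher were Pla2g7, which degrades platelet-activating factor, at 203 CPM in knockout and 130 CPM in WT cells, Abcc1, an exporter of leukotriene C4, at 102 CPM in knockout and 67.8 CPM in WT cells, and Ltb4r1, the leukotriene B4 receptor, at 40.8 CPM in knockout and 27.0 CPM in WT cells. The other three, Pla2g4c, Dagla and Ggt5, were under 10 CPM in both libraries. Lower, besides Ptgds, was Mgll, the monoacylglycerol lipase, at 2.07 CPM in knockout and 6.11 CPM in WT cells. In monocyte-like cells, 0 of 26 were higher and 3 lower, against 7.03% and 3.89% of all genes. The 3 were Ptgds, Hpgds and Ptges2, with Hpgds at 4.45 CPM in knockout and 10.7 CPM in WT cells. In CD8 T-like cells, 2 of 29 were higher (Pla2g4b and Pla2g4c) and 5 lower (Ptgds, Hpgds, Mgll, Dagla and the prostaglandin transporter Slco2a1), all under 10 CPM, against 3.33% and 6.93% of all genes.

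Among immune classes, several route enzymes and receptors peaked in the same class of both libraries. Pla2g4a, the cytosolic phospholipase that releases arachidonic acid, was highest in monocyte-like cells, at 212 CPM in knockout and 203 CPM in WT cells. Ltb4r1 peaked there too, at 175 CPM in knockout and 180 CPM in WT cells. Hpgds was highest in Lyve1-Cbr2 macrophages, which also led for Ltc4s, at 130 CPM in knockout and 196 CPM in WT cells. Cysltr2, a receptor for cysteinyl leukotrienes, was highest in Treg-like cells, at 78.5 CPM in knockout and 131 CPM in WT cells. Tbxa2r, the thromboxane receptor, was highest in plasmacytoid dendritic-like cells, at 35.4 CPM in knockout and 21.8 CPM in WT cells. Both classes were too small to compare, with 91 knockout and 67 WT Treg-like cells and 137 knockout and 50 WT plasmacytoid dendritic-like cells. For others the leading class differed between libraries. Tbxas1, the thromboxane synthase, led in cDC1-like cells of the knockout library at 612 CPM and in Lyve1-Cbr2 macrophages of the WT library at 470 CPM, and it passed 1.5-fold in 2 classes, with 477 CPM in knockout and 311 CPM in WT cDC2-like cells. Lta4h, which makes leukotriene B4, led in knockout cDC2-like cells at 132 CPM and in WT NK-like cells at 129 CPM. Cysltr1 led in knockout Lyve1-Cbr2 macrophages at 130 CPM and in WT cDC2-like cells at 126 CPM.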

How the data were processed

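Living CD45+ cells of DGAT1-knockout and WT tumours were measured in 1 droplet library each. The deposited values are counts, raw UMIs of 32285 genes in every barcode, written by Cell Ranger 7.2.0 per the file headers, with mm10 as the build per the submitters' processing notes. No source used here names the annotation or filters. The libraries held 202946827 UMIs (knockout) and 235652476 UMIs (WT).

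Cells were called from the raw barcodes in each library (barcodes with at least 500 UMIs that differed from free RNA in 10000 simulations at a false discovery rate of 0.01, plus those above a UMI threshold of 11888 in knockout and 17765 in WT). Cells with under 250 genes or over 10% mitochondrial UMIs were left out. Scrublet in scanpy 1.11.5 marked 380 doublets (3.37%) in knockout and 162 (1.76%) in WT, below the expected 9.03% and 7.36%, and these were removed. Clusters (leidenalg 0.10.2, resolution 1) were made without members or pathway genes. Cells were gated into classes by the mean scaled level of marker genes. CPM is a gene's UMIs in a class over all UMIs of that class; levels carry Poisson intervals, ratios conditional ones and shares binomial ones, all exact. With 1 library per group no test or p-value was computed. Calls and ratio intervals were run on simulated Poisson counts for the CD8 T-like, macrophage-like, monocyte-like and neutrophil-like classes. These counts hold no spread between cells or libraries, so the run checks the code and not the intervals on real cells. Free RNA was estimated from melanoma genes, with a cap of 10% of a class's UMIs.

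The members, gene lists, markers and alternatives were chosen with earlier results of these data known, and 2 gates were added after the clusters were seen. Named genes are the members, pathway genes past 1.5-fold in macrophage-like, monocyte-like or CD8 T-like cells, the leading class of route enzymes and receptors (those with few UMIs are left out), and among the 3 genes most alike in level to each member; Tbxas1 and Hpgds in other classes were added after their values were seen. Promoters were matched by symbol to the RefSeq table for 9 of 10 members, and positions are from GENCODE M21.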

Additional observations from a re-analysis of the deposited data

Results flagged for a closer look

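Ptgs2 was at least 1.5-fold higher in the knockout library in 4 classes and that much lower in 1, and Ltc4s was higher in 1 class and lower in 1. With 1 library per group these differences between classes were not tested. The log2 ratio of Ptgs2, knockout over WT, was 1.02 in macrophage-like cells, 0.67 in Inhba-Slc7a2 phagocytes, 1.13 in cDC1-like cells and 0.98 in CD8 T-like cells, and -0.65 in non-classical monocyte-like cells. For Ltc4s it was 0.69 in Inhba-Slc7a2 phagocytes and -0.66 in mature dendritic-like cells. Of these, the CD8 T-like value lies within the free RNA estimate from melanoma genes. The cDC1-like and non-classical values rest mostly on 10 cells of each library.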

How the results depend on the processing

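No paired analysis was possible because each group is 1 library and the result comes from no test. Over 62 pairs and 13 alternatives that give a ratio, 62 of 785 values changed sign, 5 of them in the 15 pairs past 1.5-fold and 57 in the 47 pairs within it. The call, past or within 1.5-fold, held under every alternative in 32 of the 62 pairs. Ptgs2 stayed at least 1.5-fold higher in macrophage-like cells (log2 from 0.73 to 1.16) and Inhba-Slc7a2 phagocytes (0.67 to 0.75) under every alternative that gave a value. The 5 in pairs past 1.5-fold were Ptgs2 in cDC1-like cells (-3.17 with clusters in place of gates, -1.02 with stricter gates, -0.15 without the 10 leading cells of each library), Ptgs2 in CD8 T-like cells (-0.18 with free RNA subtracted) and Ltc4s in mature dendritic-like cells (0.20 without the 10 leading cells). In that CD8 T-like case the free RNA estimate exceeded the Ptgs2 counts of both libraries, so a floor of 3 counts stood in. The value of -0.18 thus holds no Ptgs2 counts. The causes were not tested. Of the counts of 11 pairs higher and 4 lower, those that moved were 1 lower with only barcodes above the UMI threshold; 18 higher without the 10 leading cells; 17 higher and 8 lower at 20 UMIs; 7 higher and 2 lower at 200 UMIs; and 4 higher and 0 lower at 2-fold. In macrophage-like cells, 3 higher and 0 lower became 5 higher with thinned cells, 5 higher and 1 lower with the mean of per-cell CPM, and 1 lower without the 10 leading cells. In monocyte-like cells, 1 higher and 0 lower became 2 higher and 1 lower with clusters in place of gates, 2 higher with clusters weighted alike, 4 higher without the 10 leading cells and 0 higher at 200 UMIs. In CD8 T-like cells, 1 higher became 0 with free RNA subtracted, where the floor of 3 counts stood in. It became 2 without the 10 leading cells and 0 at 2-fold. The shares over all genes given above hold for 1.5-fold and 50 UMIs in the main processing only. Those shares, and the number of measured pairs, can differ under each alternative and are not given here. The moved counts are therefore not read as a result about the members. Leaving out 10 cells takes a larger share of the library with fewer cells, such as 295 WT against 777 knockout cDC2-like cells. Ratios and counts without the 10 leading cells can shift for that reason, and its part was not tested. Clusters in place of gates gave no value for non-classical monocyte-like cells. Inhba-Slc7a2 phagocytes have none without the added gates, an alternative chosen after seeing the data. Depth limits members under 50 UMIs, 38 pairs of 100.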
